A study of Homo sapiens with 12 samples.

Results

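MDA-MB-231 cells labelled ERK5-ko were compared with parental MDA-MB-231 cells across all protein-coding genes, using the 2 libraries with each label, 4 of the 12 libraries of the series. MDA-MB-231 is an established triple-negative breast cancer cell line with mesenchymal features. The parental libraries came from passages 29 and 30. The libraries labelled ERK5-ko came from passages 7 and 8 of a line made with CRISPR/Cas9 guides against MAPK7, of which a single clone survived sorting. The remaining libraries were 2 of MDA-MB-231 labelled MEK5DD, the same line with a constitutively active MEK5, and 6 of Hs-578T, a further triple-negative line, with the same 3 labels. The Hs-578T libraries used below were parental ones of passages 83 and 84 and ones labelled ERK5-ko of passages 8 and 9. Genotype, passage and clonal origin changed together between the groups and cannot be told apart. Nothing in the labels states that the libraries of a group came from separate cultures, so p values measure only the spread between these libraries, which may be technical.

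ERK5 is a mitogen-activated protein kinase that is phosphorylated by MEK5, the product of MAP2K5, and it carries a transcriptional activation domain beside its kinase domain. Its known substrates include the MEF2 transcription factors, and KLF2 and KLF4 are known target genes. In breast cancer cells the pathway is studied for its links to epithelial-to-mesenchymal transition, drug resistance, proliferation and the extracellular matrix. Collagen, integrin and laminin genes are left out below, and the other pathways are described.

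The 4 libraries held 22570083 to 27791195 reads in total. Values are RPKM, read counts scaled for the length of the gene model and the depth of the library. Protein-coding genes were tested if they reached 0.5 RPKM in 2 or more of the 12 libraries, which left 13737, and limma was applied to log2(RPKM + 0.5). On that scale a fold change of a low gene is understated. ESR1 and PGR, the estrogen and progesterone receptor genes whose absence defines the subtype, had mean RPKM of at most 0.0636 over the 4 libraries. VIM, the mesenchymal intermediate filament gene, had 1610.0 and 1751 RPKM in the parental libraries and 1637 and 1598 RPKM in those labelled ERK5-ko. Of 9 leukocyte markers, 3 had a mean RPKM of at least 1, and CD68, expressed by many cell types, was the highest with 62.0. The summed RPKM of the 9 leukocyte markers was 70.9 and 78.1 in parental libraries and 57.1 and 69.9 in those labelled ERK5-ko. PTPRC and CD3E, which define leukocytes and T cells, were at or near 0 in all 4 libraries. Of 9 endothelial markers, 2 had a mean of at least 1, ESAM and KDR, and EMCN was at 0 in all 4 libraries. The endothelial sum was 14.9 and 15.2 in parental libraries and 4.86 and 5.13 in those labelled ERK5-ko, most of it ESAM, a junctional adhesion molecule with 12.5 and 12.7 RPKM against 3.61 and 4.06 RPKM.

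The RNA of MAPK7, the targeted gene, was at least as high under the ERK5-ko label as in the parental line. MAPK7 had 13.3 and 14.3 RPKM in the parental libraries and 16.3 and 17.8 RPKM in the others (log2 fold change 0.29, SE 0.101, adjusted p = 0.0709, limma with Benjamini-Hochberg adjustment). Both libraries labelled ERK5-ko lay above both parental ones. The adjusted p was 0.0297 with median-ratio scaling, 0.0263 after quantile normalization, 0.0439 in a fit of the 6 MDA-MB-231 libraries and 0.0274 with a replicate block, so the call of a higher level depends on these choices. The values count reads over the whole gene, so they do not show whether the reading frame was cut, and each direction below refers to the labels. By Western blot the study reported significantly less ERK5 protein in MDA-MB-231 ERK5-ko cells than in parental cells. MAP2K5 had 12.9 and 13.6 RPKM in parental libraries and 15.6 and 14.8 RPKM in those labelled ERK5-ko (log2 fold change 0.20, adjusted p = 0.222, limma), and its adjusted p was 0.0414 in a fit of the 6 MDA-MB-231 libraries.

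Across all genes, 949 of 13737 (6.91%) passed an adjusted p of 0.05 with a higher level in the libraries labelled ERK5-ko, and 1430 (10.4%) with a lower level. With the fold thresholds of the study, 385 genes (2.8%) were called higher, at a fold above 1.5, and 147 (1.07%) lower, at a fold below 0.5. These thresholds are not symmetric on a log scale, and at a fold below 1/1.5 the number of lower genes was 689. The groups did not overlap for 9014 genes (65.6%). Counts of list members given below stand beside these shares of all genes, 6.91% passing higher and 10.4% passing lower. The share of passing genes that were higher was 39.9%, but 54.5% after median-ratio scaling and 50.6% after quantile normalization, so the balance of directions depends on the scaling. Without parental replicate 1, parental replicate 2, ERK5-ko replicate 1 or ERK5-ko replicate 2, the passing genes numbered 387, 409, 481 and 489 higher and 650, 603, 777 and 711 lower.

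On the same scale as the test, the largest increase was that of THBS2, a matricellular thrombospondin that restrains angiogenesis. It had 2.11 and 2.28 RPKM in the parental libraries and 27.1 and 21.9 RPKM in the others (log2 fold change 3.21, SE 0.165, adjusted p = 7.63e-07, limma). RGS5, a regulator of G protein signalling known from pericytes, had 3.06 and 3.17 RPKM against 28.5 and 25.9 RPKM (log2 fold change 2.93, adjusted p = 3.04e-07, limma). PTGFRN, which binds the prostaglandin F receptor, rose from 7.76 and 7.13 RPKM to 31.2 and 27.4 RPKM, and VTN, the adhesive plasma protein vitronectin, from 0.673 and 0.665 RPKM to 3.52 and 3.11 RPKM. ABCG2, a drug efflux transporter, had 2.23 and 2.26 RPKM against 7.83 and 9.07 RPKM, and CA9, a hypoxia-inducible carbonic anhydrase, 4.54 and 4.58 RPKM against 16.8 and 18.2 RPKM. For each of these genes both ERK5-ko libraries lay above both parental libraries, which the choice of genes required.

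**Figure D1:**
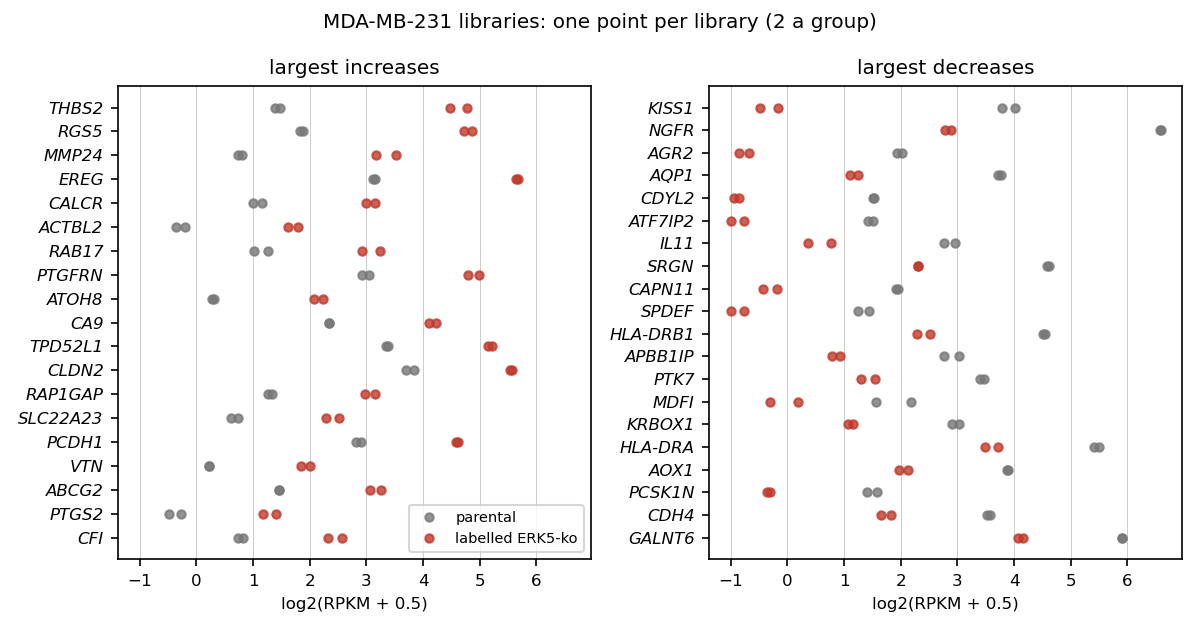
Levels of 19 of the 20 genes with the largest increases and of the 20 with the largest decreases among passing genes whose mean over the 4 libraries reached 1 RPKM, as log2(RPKM + 0.5) on the horizontal axis, with grey points for the 2 parental libraries and red points for the 2 libraries labelled ERK5-ko. The groups do not overlap for any of the 39 genes, which the choice of genes required.

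On the log2(RPKM + 0.5) scale the largest decrease was that of KISS1, which encodes the precursor of kisspeptin and is known as a metastasis suppressor gene. It had 13.3 and 15.6 RPKM in parental libraries and 0.389 and 0.211 RPKM in those labelled ERK5-ko (log2 fold change -4.23, SE 0.145, adjusted p = 3.27e-08, limma). NGFR, the low-affinity neurotrophin receptor, fell from 95.6 and 95.3 RPKM to 6.42 and 6.91 RPKM, a 14.3-fold ratio of means. AQP1, a water channel, had 12.7 and 13.2 RPKM in parental libraries against 1.87 and 1.64 RPKM, and SRGN, the proteoglycan of secretory granules, 23.4 and 24.2 RPKM against 4.46 and 4.43 RPKM. The separation between groups was many times the distance between libraries within a group for these 4 genes. They were chosen for the largest decreases among passing genes with groups that did not overlap, so a wide separation follows from the choice. PTK7, a receptor-like pseudokinase of planar cell polarity, fell from 10.6 and 10.1 RPKM to 2.42 and 1.97 RPKM.

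In 4 genes both libraries labelled ERK5-ko were at the floor of 3 reads or fewer while the parental mean was at least 1 RPKM. AGR2, a protein disulfide isomerase of secretory cells, had 65 and 68 reads in parental libraries and 2 and 1 reads in those labelled ERK5-ko, which is at least 20.1-fold lower when set against 3 reads per library. CDYL2, a chromodomain protein gene, had 134 and 152 reads against 1 and 3, at least 43.0-fold lower. ATF7IP2 had 89 and 93 reads against 3 and 0, at least 27.5-fold lower. TRIM61 had 31 reads in each parental library against 1 and 2, at least 9.36-fold lower. No gene averaging 1 RPKM or more in the libraries labelled ERK5-ko was at the floor in both parental libraries. These floors cover counting error only.

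Genes of mitosis moved together and downwards. Of 56 mitosis genes tested, 49 passed lower (against 10.4% of all genes) and 0 passed higher, and their median log2 fold change was -0.75, beside -0.04 for all genes tested. All 56 had a log2 fold change below 0, and the groups did not overlap for any of the 56 (65.6% of all genes). Leaving out parental replicate 1, parental replicate 2, ERK5-ko replicate 1 or ERK5-ko replicate 2 left 35, 33, 39 and 36 passing lower.

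KIF15, a spindle kinesin, had 19.9 and 17.2 RPKM in parental libraries and 8.19 and 6.86 RPKM in those labelled ERK5-ko (log2 fold change -1.25, SE 0.183, adjusted p = 9.49e-04, limma). HMMR, a spindle assembly protein gene, had 9.05 and 8.43 RPKM against 4.05 and 4.11 RPKM, and DLGAP5, which stabilizes kinetochore fibres, 113 and 103 RPKM against 56.0 and 50.7 RPKM. CCNB1, the mitotic cyclin B1, had 265 and 268 RPKM in parental libraries and 154 and 169.8 RPKM in the others (log2 fold change -0.72, adjusted p = 0.00171, limma). ECT2, the exchange factor that starts cytokinesis, fell from 117 and 109 RPKM to 64.6 and 59.9 RPKM, and BIRC5, which encodes survivin of the chromosomal passenger complex, from 128 and 129 RPKM to 72.8 and 81.6 RPKM. KIF15 and ECT2 lie on chromosome 3, where the median of all genes was -0.27. FOXM1, the transcription factor of late cell cycle genes, had 88.8 and 95.5 RPKM against 50.9 and 52.6 RPKM (adjusted p = 0.00522, limma), and its adjusted p was 0.0318 to 0.0524 without 1 library at a time, the highest without parental replicate 2. By staining for the proliferation antigen Ki-67, the study reported no significant difference between parental and ERK5-ko MDA-MB-231 cells. MKI67, the gene of this antigen, had 59.2 and 57.0 RPKM in parental libraries and 27.1 and 23.7 RPKM in those labelled ERK5-ko (log2 fold change -1.18, adjusted p = 0.0252, limma). Its libraries did not overlap, but its adjusted p was 0.0863 to 0.143 when any 1 of the 4 libraries was left out and 0.0615 with no filter on low values.

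Mitotic genes are known to share promoter elements, the cell cycle genes homology region TTTGAA and the CCAAT box. The 250 bases before the annotated start were searched for these letters on both strands in RefSeq promoters of GRCh38.p14, which gave a window for 49 of the 56 genes. TTTGAA stood in 27 of the 49 (55.1%) and in 13.3% of all 35116 promoters. CCAAT stood in 36 (73.5%) against 32.0%, and both in 22 (44.9%) against 4.69%. The named mitosis genes that hold both are shown from 150 bases before the start to the base before it, 5′ to 3′ on the strand of the gene, with matches to either motif on either strand in capitals. On the other strand the motifs read TTCAAA and ATTGG, and in HMMR and MKI67 some matches overlap or touch each other.
DLGAP5 promoter, chr14:55191586-55191735, minus strand: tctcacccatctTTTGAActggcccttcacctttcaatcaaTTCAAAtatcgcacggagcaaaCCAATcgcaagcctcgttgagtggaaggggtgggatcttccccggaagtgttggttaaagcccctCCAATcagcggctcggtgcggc
ECT2 promoter, chr3:172750576-172750725, plus strand: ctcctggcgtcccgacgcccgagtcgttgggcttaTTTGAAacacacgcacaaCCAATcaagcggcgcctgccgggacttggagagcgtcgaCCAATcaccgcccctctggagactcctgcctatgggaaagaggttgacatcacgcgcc
HMMR promoter, chr5:163460482-163460631, plus strand: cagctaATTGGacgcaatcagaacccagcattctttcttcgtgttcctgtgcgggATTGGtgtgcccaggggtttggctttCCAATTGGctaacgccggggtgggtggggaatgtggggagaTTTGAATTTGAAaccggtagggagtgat
MKI67 promoter, chr10:128126424-128126573, minus strand: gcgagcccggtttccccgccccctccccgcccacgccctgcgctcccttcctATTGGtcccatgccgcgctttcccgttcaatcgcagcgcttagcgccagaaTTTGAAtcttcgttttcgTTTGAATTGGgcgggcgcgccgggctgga

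A match of letters is a description of these windows and not a measured binding site. Each list gene gave at most 1 window, whereas the set of all promoters also held those of genes not tested. The shares of all promoters, here and below, are therefore not a matched background. Among the DNA replication genes described next, TTTGAA stood in 1 of 48 windows (2.08%), and the E2F motif TTTCGCGC in 3 of 48 (6.25%) against 0.439% of all promoters.

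Genes of DNA replication and the G1/S transition also fell. Of 60 tested, 36 passed lower and 0 higher, with a median log2 fold change of -0.46, and all 60 values were below 0. GINS4, a subunit of the replicative helicase, had 23.4 and 23.5 RPKM in parental libraries and 10.9 and 11.01 RPKM in those labelled ERK5-ko (log2 fold change -1.06, adjusted p = 3.79e-04, limma). CDT1, a licensing factor, had 12.8 and 13.9 RPKM against 6.25 and 6.61 RPKM, and RFC4, a clamp loader subunit on chromosome 3, 62.4 and 62.0 RPKM against 34.7 and 35.0 RPKM. Without each library in the order parental 1, parental 2, ERK5-ko 1 and ERK5-ko 2, 16, 12, 16 and 22 of the list passed lower. Of 41 genes of ribosome biogenesis, 10 passed lower and 0 higher (median -0.29, all 41 below 0), and 5, 2, 4 and 3 with the same libraries left out. By contrast, 0 of 87 cytosolic ribosomal protein genes passed higher and 2 passed lower, and 0 lower without the genes of chromosome 3.

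Brakes on the cell cycle were mixed, beside 6.91% higher and 10.4% lower among all genes. Of 27 genes of D-type cyclins, CDK inhibitors and related brakes, 6 passed higher and 3 lower, and 3, 2, 3 and 3 higher and 1 lower each time without each library in the order above. CDKN1A, which encodes the CDK inhibitor p21, rose from 81.9 and 85.7 RPKM to 129 and 137 RPKM (log2 fold change 0.66, SE 0.102, adjusted p = 0.00126, limma). BTG2, an antiproliferative gene induced by p53, had 1.10 and 1.26 RPKM in parental libraries and 2.34 and 2.66 RPKM in the others. CDKN3, a phosphatase of CDKs whose RNA peaks in mitosis, fell from 73.9 and 77.0 RPKM to 39.4 and 40.8 RPKM. Of 29 p53 targets, 7 passed higher and 4 lower, with a median log2 fold change of 0.06, and 3 or 4 passed higher and 1 or 2 lower when any 1 library was left out.

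**Figure D2:**
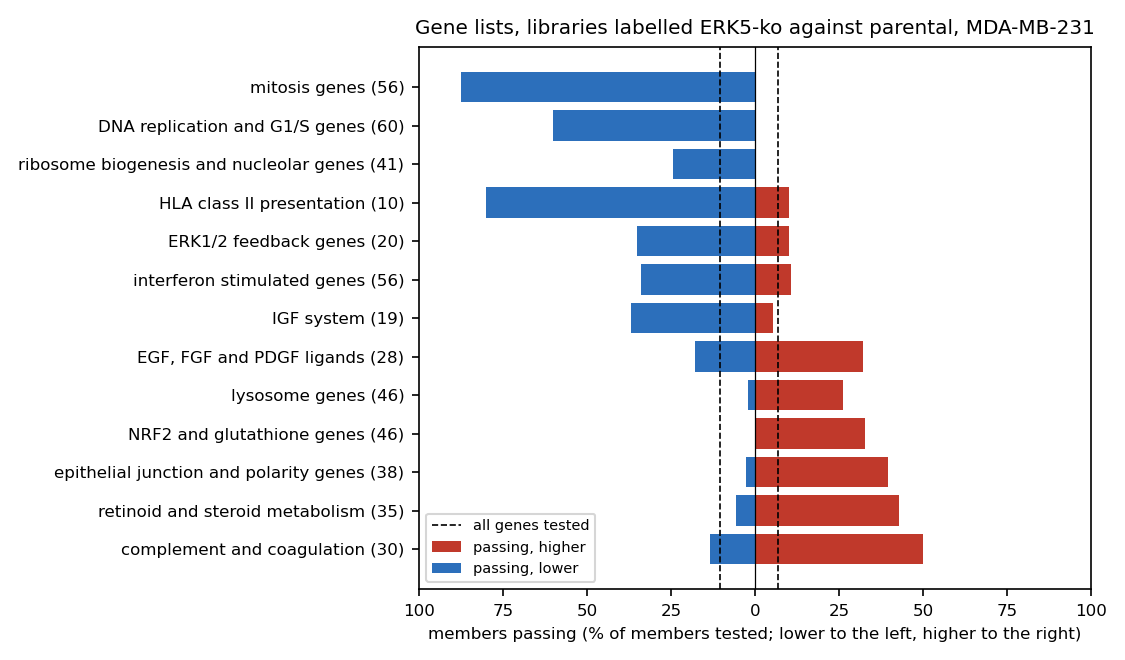
Share of the tested members of 13 gene lists that passed, in percent, lower to the left in blue and higher to the right in red, with the number of members tested in parentheses. Dashed lines mark 6.91% higher and 10.4% lower, the shares of all genes tested.

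Among known targets of the ERK5 pathway, KLF4, a transcription factor, fell from 16.5 and 16.4 RPKM to 10.4 and 10.4 RPKM (log2 fold change -0.64, SE 0.111, adjusted p = 0.00275, limma). MEF2C, an ERK5 substrate, fell from 1.99 and 2.04 RPKM to 1.14 and 1.14 RPKM (adjusted p = 0.00232, limma). KLF2, singled out as a known target after its values were seen, had 6.43 and 5.95 RPKM in parental libraries and 3.40 and 4.26 RPKM in the others and did not pass (log2 fold change -0.63, adjusted p = 0.0586, limma). KLF2 passed lower at a pseudocount of 1 (adjusted p = 0.0482), with a replicate block (0.0481), in limma voom (0.0346) and in a fit of the 6 MDA-MB-231 libraries (0.0204), so its call depends on these choices. Of the 8 MEF2 and KLF list members, 3 passed lower and 1 higher, with a median of -0.49, with 3 lower and 0 higher without each library in turn and 5 lower with the replicate block.

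The parallel ERK1/2 pathway induces its own inhibitors. The list of 20 ERK1/2 feedback genes also held transcription factor genes such as ETV5 and FOSL1. Of the 20, 7 passed lower and 2 higher (median -0.12). SPRY4, a Sprouty inhibitor, fell from 73.0 and 72.5 RPKM to 45.6 and 44.2 RPKM (log2 fold change -0.69, adjusted p = 4.36e-04, limma). ETV5, an ETS factor on chromosome 3, fell from 113 and 113 RPKM to 75.7 and 74.0 RPKM, and FOSL1, an AP-1 subunit of invasive breast cancer cells, from 311 and 329 RPKM to 204 and 234 RPKM. DUSP6, an ERK phosphatase, had 97.0 and 97.2 RPKM in parental libraries and 61.6 and 66.8 RPKM in the others (adjusted p = 0.0184, limma, and 0.0653 to 0.116 when 1 of the 4 libraries was left out). With the libraries left out in the order parental 1, parental 2, ERK5-ko 1 and ERK5-ko 2, 3, 3, 3 and 4 of the list passed lower and 0, 0, 2 and 0 higher. Of 18 AP-1 and immediate early genes, 4 passed higher and 1 lower, and 2 or 3 higher without 1 library.

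Growth factor genes changed in both directions, with large individual changes. Of 28 ligands and receptors of the EGF, FGF, PDGF and neurotrophin families, 9 passed higher and 5 lower. EREG, an EGF receptor ligand, rose from 8.14 and 8.42 RPKM to 49.2 and 50.8 RPKM (log2 fold change 2.52, SE 0.0964, adjusted p = 6.75e-08, limma). AREG, its neighbour on chromosome 4 and also an EGF receptor ligand, rose from 64.0 and 63.9 RPKM to 194 and 202 RPKM. Both groups were tight for these genes, and the ERK5-ko libraries lay 6.03-fold and 3.10-fold above the parental means. PDGFB, a ligand of the PDGF receptors, had 2.15 and 1.99 RPKM against 7.39 and 6.20 RPKM. FGF5 went the other way, from 2.07 and 1.99 RPKM to 0.495 and 0.477 RPKM, and NGFR, the receptor named above, belongs to the same list. Without each library in turn, 6 or 7 members passed higher and 5 lower.

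The insulin-like growth factor system held 7 of 19 genes that passed lower and 1 that passed higher. IGFBP1, a binding protein that modulates IGF availability, fell from 17.3 and 17.4 RPKM to 7.09 and 8.05 RPKM (log2 fold change -1.15, adjusted p = 3.56e-05, limma). IGFBP4 fell from 589 and 596 RPKM to 273 and 330.5 RPKM and IGFBP3 from 40.4 and 40.8 RPKM to 24.1 and 25.7 RPKM. Without parental replicate 1, parental replicate 2, ERK5-ko replicate 1 or ERK5-ko replicate 2, 4, 5, 7 and 4 passed lower.

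Genes of the TGF-beta pathway moved in both directions, beside 6.91% higher and 10.4% lower among all genes. Of 32 genes, 4 passed higher and 6 lower (median -0.07), and 3 to 5 lower without 1 library at a time, the 3 without parental replicate 1 or ERK5-ko replicate 2. Without the genes of chromosome 3, 3 of 29 passed lower. TGFB2, a ligand, rose from 35.0 and 34.0 RPKM to 83.6 and 70.0 RPKM (log2 fold change 1.14, adjusted p = 2.26e-04, limma), and THBS1, an activator of latent TGF-beta, from 571 and 625 RPKM to 1574 and 1201 RPKM. TGFBR2, the type II receptor on chromosome 3, fell from 45.3 and 44.2 RPKM to 23.5 and 20.3 RPKM (log2 fold change -1.02, adjusted p = 7.24e-05, limma), and LTBP1, which holds latent TGF-beta in the matrix, from 9.59 and 9.83 RPKM to 4.08 and 4.36 RPKM. In the related BMP list, 5 of 22 genes passed higher and 1 lower, and 2 or 3 higher without 1 library. BMP4 rose from 210.0 and 209 RPKM to 406 and 442 RPKM and its extracellular inhibitor FST, follistatin, from 37.9 and 40.6 RPKM to 80.4 and 73.9 RPKM. HES1, a repressor downstream of Notch and on chromosome 3, fell from 7.18 and 7.36 RPKM to 2.27 and 1.96 RPKM.

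Genes of HLA class II antigen presentation, which display peptides to CD4+ T cells, passed lower in 8 of 10 cases and higher in 1. Their median log2 fold change was -1.07. HLA-DRA had 44.8 and 42.2 RPKM in parental libraries and 10.7 and 12.7 RPKM in those labelled ERK5-ko (log2 fold change -1.85, SE 0.117, adjusted p = 2.54e-06, limma). HLA-DRB1 fell from 22.2 and 22.9 RPKM to 4.35 and 5.21 RPKM and HLA-DPB1 from 19.2 and 18.8 RPKM to 7.11 and 6.29 RPKM. The HLA-DRB genes are near-identical copies, so the split of reads between them is uncertain. CIITA, the master regulator of class II transcription, fell from 3.77 and 3.29 RPKM to 1.45 and 2.09 RPKM (log2 fold change -0.84, adjusted p = 0.00173, limma), a call lost when the 4 libraries were fitted alone. CTSS, the protease that trims the invariant chain, was the member that rose, from 13.2 and 13.0 RPKM to 20.5 and 20.1 RPKM. The CCAAT motif stood in 6 of the 7 class II windows that could be matched (85.7%), against 32.0% of all promoters.

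HLA class I genes, which are also near-identical in parts, were mixed. Of 20 class I presentation genes, 5 passed higher and 3 lower. Without each library in the order parental 1, parental 2, ERK5-ko 1 and ERK5-ko 2, 1, 2, 2 and 1 passed higher and 0 lower each time.

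Interferon stimulated genes are known to limit viral replication. Of 56, 19 passed lower and 6 higher (median -0.26), and without each library in the order above 9, 10, 10 and 11 passed lower and 1, 1, 3 and 2 higher. IFIT3, which binds foreign RNA in a complex, fell from 59.3 and 57.0 RPKM to 29.9 and 29.8 RPKM (log2 fold change -0.95, SE 0.101, adjusted p = 1.16e-04, limma). RSAD2, which encodes viperin, fell from 11.4 and 10.5 RPKM to 4.49 and 4.06 RPKM, OASL from 15.1 and 14.8 RPKM to 5.97 and 7.38 RPKM and IFI44 from 31.0 and 27.8 RPKM to 13.1 and 14.8 RPKM. IFI27 went up instead, from 77.5 and 75.6 RPKM to 131 and 150.4 RPKM (log2 fold change 0.87, adjusted p = 0.0128, limma), a call not kept without parental replicate 1, parental replicate 2 or ERK5-ko replicate 2, where the adjusted p reached 0.102. IRF9, which carries the interferon signal to the nucleus and was singled out after its values were seen, did not pass (log2 fold change -0.25, adjusted p = 0.0681, limma), but passed with a replicate block (adjusted p = 0.0459), with no filter on low values (0.0479) and in a fit of the 6 MDA-MB-231 libraries (0.0340).

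The interferon-stimulated response element was searched as TTTC, any 2 bases, then TTTC. On either strand it stood in 24 of 44 windows of the list (54.5%), against 3.02% of all promoters. Windows of the 4 named genes that hold it are shown as above, with matches in capitals. They include IFI27, whose level rose, beside IFI44 and IFIT3, whose levels fell, and ISG15, which encodes a ubiquitin-like modifier. ISG15 had 110.1 and 101 RPKM in parental libraries and 70.7 and 74.2 RPKM in the others (log2 fold change -0.54, adjusted p = 0.00673, limma, and up to 0.0766 without 1 library, the call being lost without parental replicate 1 or ERK5-ko replicate 1). On the other strand the motif reads GAAA, any 2 bases, then GAAA, and the matches in ISG15 overlap.
IFI27 promoter, chr14:94110586-94110735, plus strand: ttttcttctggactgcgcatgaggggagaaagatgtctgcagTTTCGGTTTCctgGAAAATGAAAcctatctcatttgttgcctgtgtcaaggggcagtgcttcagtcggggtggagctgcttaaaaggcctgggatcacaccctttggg
IFI44 promoter, chr1:78649639-78649788, plus strand: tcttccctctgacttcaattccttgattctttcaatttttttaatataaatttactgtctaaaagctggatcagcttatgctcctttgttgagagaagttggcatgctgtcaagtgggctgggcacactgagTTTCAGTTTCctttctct
IFIT3 promoter, chr10:89327847-89327996, plus strand: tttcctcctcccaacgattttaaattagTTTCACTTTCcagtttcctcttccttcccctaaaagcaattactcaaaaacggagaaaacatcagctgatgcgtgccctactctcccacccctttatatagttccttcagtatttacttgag
ISG15 promoter, chr1:1013347-1013496, plus strand: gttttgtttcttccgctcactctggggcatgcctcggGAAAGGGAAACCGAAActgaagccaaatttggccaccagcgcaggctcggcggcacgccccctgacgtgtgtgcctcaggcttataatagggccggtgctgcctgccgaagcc

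Cytokine genes were mixed. IL11, an IL-6 family cytokine, fell from 6.32 and 7.25 RPKM to 1.21 and 0.779 RPKM (log2 fold change -2.30, SE 0.142, adjusted p = 2.23e-06, limma), whereas IL6 rose from 10.3 and 9.93 RPKM to 25.9 and 30.2 RPKM (log2 fold change 1.42, adjusted p = 3.92e-05, limma). CSF1, the macrophage growth factor, fell from 172 and 176 RPKM to 106 and 124 RPKM. Of 30 interleukins and colony stimulating factors, 7 passed higher and 4 lower, and 5 or 6 higher and 2 or 3 lower without 1 library, the 2 without ERK5-ko replicate 1. CXCL8, the gene of interleukin 8, had 28.7 and 27.9 RPKM in parental libraries and 36.3 and 47.0 RPKM in the others and did not pass (log2 fold change 0.54, adjusted p = 0.201, limma), but passed when only the 6 MDA-MB-231 libraries were fitted (adjusted p = 0.0351).

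Complement and coagulation genes passed higher in 15 of the 30 cases tested and lower in 4, and 10 had a log2 fold change below 0. F3, which encodes tissue factor, the initiator of coagulation, rose from 339 and 334 RPKM to 850.2 and 778 RPKM (log2 fold change 1.27, SE 0.129, adjusted p = 7.97e-05, limma). CFI, the complement protease factor I, rose from 1.16 and 1.28 RPKM to 5.41 and 4.49 RPKM and C1R, a protease of the first complement component, from 6.67 and 8.62 RPKM to 15.4 and 15.9 RPKM. PLAU, the urokinase plasminogen activator, was the most abundant member that passed lower, from 1125 and 1210.0 RPKM to 459 and 466 RPKM (log2 fold change -1.33, adjusted p = 4.03e-06, limma). With the libraries left out in the order parental 1, parental 2, ERK5-ko 1 and ERK5-ko 2, 9, 11, 12 and 9 members passed higher.

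Epithelial junction and polarity genes passed higher in 15 of 38 cases and lower in 1 (median 0.23), and 9 had a log2 fold change below 0. LLGL2, a polarity protein gene, rose from 14.1 and 14.8 RPKM to 27.7 and 29.6 RPKM (log2 fold change 0.97, SE 0.103, adjusted p = 1.14e-04, limma). MAL2, which sorts apical membrane, rose from 9.36 and 8.38 RPKM to 19.7 and 22.0 RPKM, and ELF3, an epithelial ETS factor, from 0.855 and 1.09 RPKM to 2.13 and 2.35 RPKM. CLDN2, a pore-forming claudin, had 13.8 and 12.5 RPKM in parental libraries and 47.0 and 46.0 RPKM in the others. CDH1, the E-cadherin gene, was near the filter, with 0.640 and 0.650 RPKM and 0.640 and 0.579 RPKM (log2 fold change -0.05, adjusted p = 0.872, limma). Of 17 keratins, 4 passed higher and 4 lower, the latter 2 without either parental replicate or ERK5-ko replicate 1. KRT7 rose from 817 and 855 RPKM to 1761 and 1676 RPKM and KRT18 from 356 and 384 RPKM to 692 and 671 RPKM. KRT81 and KRT15 were among the 4 that passed lower. Of 21 EMT factors and mesenchymal genes, 3 passed higher and 2 lower, with a median of -0.02, and 0 or 1 higher without any 1 library. CDH11 and S100A4 were among the 3 that passed higher, and neither call was kept without parental replicate 1 or parental replicate 2. ZEB1, a repressor of epithelial genes, fell from 30.2 and 31.0 RPKM to 22.6 and 19.1 RPKM (adjusted p = 0.0124, limma). The ZEB1 call was not kept without parental replicate 1, parental replicate 2 or ERK5-ko replicate 2.

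In metabolism, genes of the NRF2 and glutathione system, which handles oxidants and electrophiles, passed higher in 15 of 46 cases and lower in 0. By limma voom 0 passed lower, and 3 were lower at an unadjusted p under 0.05. Of the 46, 13 had a log2 fold change below 0. TXNRD1, thioredoxin reductase, rose from 437 and 411 RPKM to 885 and 799 RPKM (log2 fold change 0.99, SE 0.152, adjusted p = 0.00125, limma). EPHX1, an epoxide hydrolase, rose from 50.8 and 61.7 RPKM to 103 and 110.5 RPKM and MGST1, a membrane glutathione transferase, from 95.2 and 93.1 RPKM to 164 and 177 RPKM. GCLM and SLC7A11, which supply glutathione, had log2 fold changes of -0.07 and -0.07 and did not pass, and both were singled out after their values were seen. Without parental replicate 1, parental replicate 2, ERK5-ko replicate 1 or ERK5-ko replicate 2, 6, 9, 11 and 7 members passed higher. The antioxidant response motif TGACNNNGC stood in 6 of 35 windows of this list (17.1%), against 10.9% of all promoters.

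Genes of retinoid and steroid metabolism passed higher in 15 of 35 cases and lower in 2. CYP1B1, which hydroxylates estrogens and xenobiotics, rose from 156 and 163 RPKM to 483 and 467 RPKM (log2 fold change 1.57, SE 0.159, adjusted p = 7.81e-05, limma). DHRS3, a retinal reductase, rose from 2.29 and 2.21 RPKM to 5.95 and 6.20 RPKM and ALDH1A3, which makes retinoic acid, from 5.56 and 5.83 RPKM to 10.9 and 11.8 RPKM. CYP26B1, which degrades retinoic acid, fell from 3.12 and 3.09 RPKM to 1.47 and 1.16 RPKM. Without each library in the order above, 7, 7, 8 and 10 passed higher. Of 46 lysosome gene entries, 2 of which were for IDS, 12 passed higher and 1 lower, but 3, 2, 5 and 2 higher without each library in that order.

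Nuclear genes of the respiratory chain gave no passing gene in limma. Of 79 tested, 0 passed, at a median log2 fold change of 0.12, and limma voom on whole reads called 3 higher and 2 lower. At an unadjusted p under 0.05, 2 of the 79 were higher and 2 lower.

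The lower genes were not spread evenly over the genome. Chromosome 3 carried 770 of the tested genes (5.61%) but 259 of the 1430 that passed lower (18.1%). On chromosome 3, 33.6% of tested genes passed lower and 2.47% higher, and the median log2 fold change was -0.27. On the other chromosomes with nuclear genes, 6.06% to 14.9% passed lower, and chromosomes 10, 14 and 16 had the highest of these shares. Of 245 windows of 10 Mb with at least 20 tested genes, 9 had a median log2 fold change at or below -0.3 and 0 at or above 0.3, and 8 of the 9 lay on chromosome 3.

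**Figure D3:**
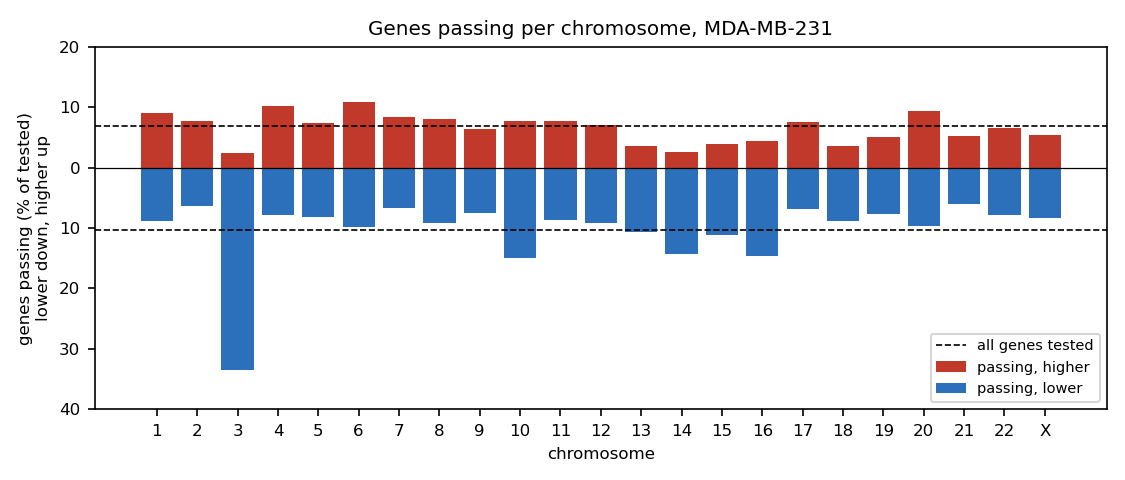
Share of tested genes that passed on each chromosome, in percent, higher upwards in red and lower downwards in blue, with dashed lines at 6.91% and 10.4% for all genes. Chromosome 3 stands apart with 33.6% lower and 2.47% higher.

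Within chromosome 3 (GRCh38), the lower genes fell into 2 stretches with a stretch between them that differed. From 0 to 110 Mb, 178 of 419 genes passed lower and 8 higher, with a median log2 fold change of -0.36. From 160 Mb to the end, 71 of 141 passed lower and 0 higher, with a median of -0.40. Between 110 and 160 Mb, 10 of 210 passed lower and 11 higher, with a median of -0.03. In the first and last stretch 89.0% and 88.7% of the genes had values below 0, against 56.2% in the middle one, and for the first stretch's genes averaging 10 RPKM or more the middle 50% lay from -0.50 to -0.22. A like stretch from 80 Mb to the end of chromosome 16 held 79 genes, of which 35 passed lower and 0 higher (median -0.39), and CDYL2 and CDT1 lie in it. KIF15, TGFBR2, ECT2, RFC4, ETV5 and HES1, described above, lie on chromosome 3 in the lower stretches. The stretches were drawn after the windows were seen, and are given as a description with no test.

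In the other comparisons the stretches of chromosome 3 had other values. The end of chromosome 16 was lower in Hs-578T labelled ERK5-ko as well, by a similar median. In libraries labelled MEK5DD, which share the parental controls, the median log2 fold changes were -0.02 and 0.01 for the first and last stretches of chromosome 3 and 0.56 for the end of chromosome 16. In Hs-578T labelled ERK5-ko against its own parental libraries they were 0.17, -0.02 and -0.44. DNA was not measured in these samples, and what underlies the stretches was not tested. Leaving out the genes of chromosome 3, 46 of 53 mitosis genes and 35 of 58 DNA replication genes passed lower, so these counts did not rest on that chromosome.

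The direction of the proliferation genes differed between the cell lines. In Hs-578T, 54 of 56 mitosis genes passed higher in libraries labelled ERK5-ko and 0 lower, where 19.7% of all genes passed in each direction. For 54 of the 56 the difference between lines itself passed, beside 5466 of 13737 genes (39.8%). CCNB1 had log2 fold changes of -0.72 (MDA-MB-231) and 0.71 (Hs-578T, adjusted p of the difference = 6.11e-05, limma). For DNA replication genes, 56 of 60 passed higher in Hs-578T and 57 differed between lines. SPRY4 and FOSL1 of the ERK1/2 feedback list also differed, with -0.69 against 0.49 and -0.55 against 1.27 (adjusted p of the difference = 4.14e-05 and 2.72e-06, limma). NRF2 genes passed lower in 22 of 46 cases in Hs-578T, and 22 members differed between the lines. CDKN1A had nearly equal changes, 0.66 and 0.66 (adjusted p of the difference = 0.998, limma), and F3 rose in both lines, by 1.27 and 1.16 on the log2 scale.

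**Figure D4:**
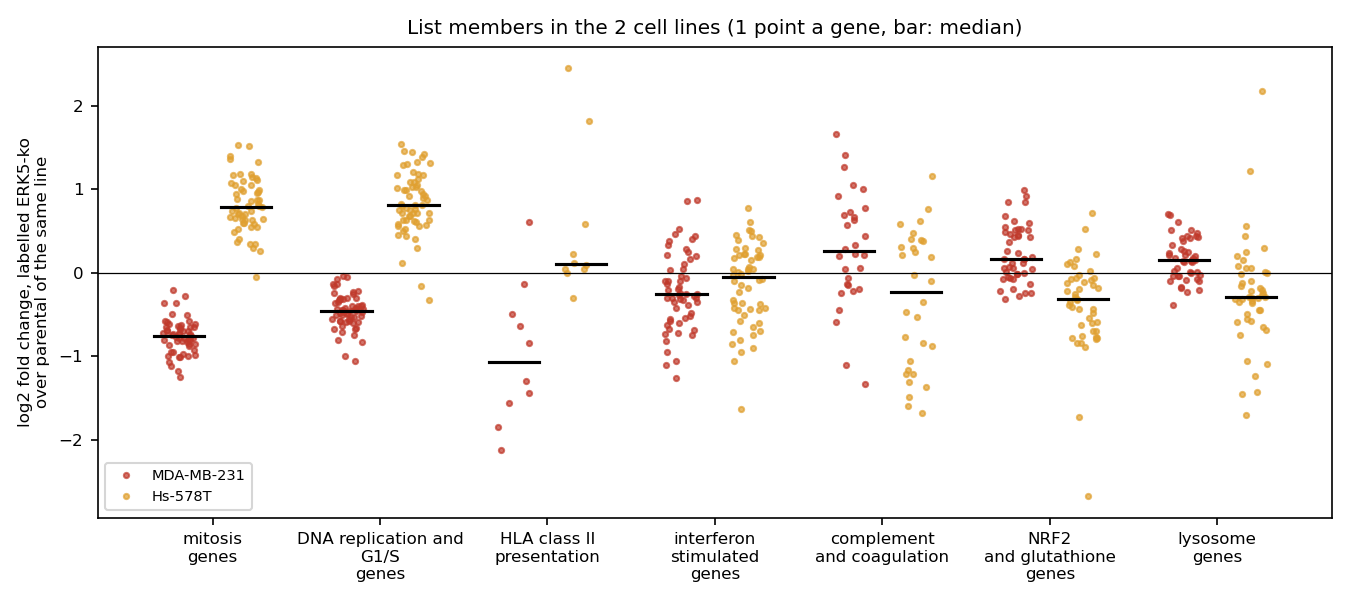
Log2 fold change of libraries labelled ERK5-ko over parental libraries for each member of 7 gene lists, in MDA-MB-231 (red) and Hs-578T (yellow), with black bars at the medians. Mitosis and DNA replication genes lie below 0 in MDA-MB-231 and nearly all above 0 in Hs-578T.

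Some genes were at or near 0 in the parental libraries of Hs-578T. HLA-DRA had -1.85 in MDA-MB-231, but Hs-578T parental libraries held 0 and 0 RPKM. EREG, which rose in MDA-MB-231, also held 0 and 0 RPKM in the Hs-578T parental libraries. THBS2 was expressed in both lines and went opposite ways, with log2 fold changes of 3.21 in MDA-MB-231 but -1.28 in Hs-578T (adjusted p of the difference = 3.83e-07, limma).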

How the data were processed

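Gene-level RPKM values of 12 libraries (6 groups of 2) were used as deposited. The authors made these RPKM values from stranded mRNA libraries, and the submitters' processing notes name bcl2fastq, Trimmomatic 0.32, TopHat2 2.1.1 and GRCh38. The counting tool and annotation are not given in the sources used here. Library totals (20248162 to 27791195 reads) and the reads of each gene were solved from exact ratios between the values. All 32152 listed genes came out whole within 0.001, and 0 of 500 did when the totals were set wrong. Intervals and floors cover counting error only.

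Groups were taken from the labels. Protein-coding genes reaching 0.5 RPKM in 2 libraries were fitted with limma 3.58.1 (trend, R 4.3.3) on log2(RPKM + 0.5), with 6 group means over the 12 libraries (6 residual degrees of freedom) and Benjamini-Hochberg adjustment over 13737 genes. A gene passed at an adjusted p under 0.05, and was called if its fold was also above 1.5 or below 0.5. The difference between cell lines was tested as a contrast of the 2 effects in the same fit. On simulated data for this comparison (13737 genes), 50 of 50 genes passed at each log2 fold change of -2, -1, 1 and 2, and 6 of 13537 unchanged genes passed. These rates hold for the simulated noise only. In the real data the scatter within a group, scored as a chi-square value over its degrees of freedom, was unequal. It was 3.7 for MDA-MB-231 parental, 8.8 for MDA-MB-231 ERK5-ko and 2.8 for MDA-MB-231 MEK5DD. For Hs-578T it was 30.7 for parental, 6.9 for ERK5-ko and 41.9 for MEK5DD libraries. How often genes pass at such unequal scatter was not tested.

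Genes and lists were chosen with earlier results of these data known, and medians and counts of lists are descriptions. Named genes were MAPK7, MAP2K5, leading genes of each list, at most the 6 largest passing changes per list with separate groups and a mean of 1 RPKM, the 20 largest changes each way, the 10 largest line differences and genes at the floor. Some genes the rule names are not reported here. KLF2, GCLM, SLC7A11 and IRF9 were added after their values were seen. Alternatives covered the pseudocount, filter, scaling, libraries fitted, replicate block, gene types, limma voom, thresholds and leaving out each library. Collagen, integrin and laminin genes were left out. Promoters came from RefSeq (GRCh38.p14), matched by symbol.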

Additional observations from a re-analysis of the deposited data

Results flagged for a closer look

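The effect of the label in MDA-MB-231 differed from that in Hs-578T, by the limma test of the difference between lines, for 5466 of 13737 genes (39.8%). By list, the genes that differed numbered 54 of 56 for mitosis, 57 of 60 for DNA replication and G1/S, 8 of 10 for HLA class II presentation and 29 of 56 for interferon stimulated genes. HLA-DRA of the class II list had no reads in the Hs-578T parental libraries, so it could not fall there. A difference between lines therefore need not be an opposite change. The genes that differed numbered 23 of 30 for complement and coagulation, 22 of 38 for epithelial junction and polarity, 22 of 46 for NRF2 and glutathione, 24 of 35 for retinoid and steroid metabolism and 30 of 46 for lysosome genes. Passage also differed between the labels in each line, and its part in the difference was not tested.

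The 10 largest differences of a single gene, as the log2 fold change in MDA-MB-231 minus that in Hs-578T, were -4.84 for CDYL2, 4.48 for THBS2, -4.32 for KISS1, -3.94 for AOX1 and -3.79 for MDFI. They were -3.65 for NGFR, -3.16 for PCSK1N, -2.95 for IL11, 2.72 for CFI and -2.71 for HLA-DRB1. For KISS1 and NGFR the log2 fold changes in MDA-MB-231 alone were -4.23 and -3.74, so their differences lay mostly in that line. CDYL2 lies in the lower stretch at the end of chromosome 16, with log2 fold changes of -2.42 (MDA-MB-231) and 2.41 (Hs-578T). MDFI, an inhibitor of myogenic factors, had -1.93 and 1.85, and AOX1, aldehyde oxidase, had -1.84 in MDA-MB-231.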

How the results depend on the processing

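With each library left out in turn, which leaves its group with 1 library assumed to vary like the other groups, 387 to 489 genes passed higher, 603 to 777 passed lower and 3871 to 4646 differed between lines. DNA replication genes passing lower numbered 12 to 22, interferon stimulated genes 9 to 11, and genes passing higher 9 to 12 for complement and coagulation, 6 to 11 for NRF2 and glutathione, 7 to 10 for retinoid and steroid metabolism and 2 to 5 for lysosome genes. A fit of the 6 MDA-MB-231 libraries passed 1596 higher and 2469 lower, and 19 lysosome genes. At an adjusted p of 0.01, 443 passed higher, 714 lower and 3303 differed between lines. Genes called lower numbered 285 at a pseudocount of 0.1, 89 at 1, 324 with limma voom on whole reads and 689 at a fold below 1/1.5, and genes called higher 105 at a fold above 2. Why these counts moved was not tested, other than that stricter thresholds leave fewer calls. A fit with the replicate block passed 1388 genes higher and 2053 lower and called 388 and 148. Deviations of same-numbered libraries had correlations of 0.154 to 0.187 over 3 pairs of groups, but the labels do not say what a number shares, and with 2 numbers no pairing was assumed.

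Leaving out the genes of chromosome 3, an alternative chosen after seeing the data, left 930 higher and 1171 lower. For 437 named genes under 15 alternatives, 5907 of 6553 values kept their side of the threshold and direction, 592 lost and 54 gained the call, and 0 reversed. Of 363 that passed, 209 passed in every alternative. With 2 libraries a side an exact permutation test of 1 gene cannot go below p = 0.333, so every call rests on the spread pooled over genes and groups.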

Other observations

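Receptors, transporters and matrix glycoproteins outside the pathways above also held large changes. CXCR4, a chemokine receptor studied in metastasis, fell from 7.92 and 8.41 RPKM to 2.65 and 2.54 RPKM (log2 fold change -1.48, adjusted p = 1.11e-05, limma). GPRC5A, a retinoic acid-inducible orphan receptor, rose from 87.7 and 87.2 RPKM to 242 and 204 RPKM. Of 94 G protein-coupled receptors, 17 passed higher and 16 lower, with 6 to 10 higher and 11 or 12 lower without 1 library. EDIL3, a secreted ligand of integrins, rose from 56.6 and 54.9 RPKM to 135 and 120.1 RPKM (log2 fold change 1.18, adjusted p = 5.71e-06, limma). PTGS2, the inducible cyclooxygenase, had 0.214 and 0.333 RPKM in parental libraries and 1.76 and 2.14 RPKM in the others.

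Axon guidance genes were mixed, with 7 of 62 passing higher and 9 lower, and 2 to 4 higher and 5 to 7 lower without 1 library. Among all genes 6.91% passed higher and 10.4% lower. PLXNA2, a semaphorin co-receptor, fell from 6.41 and 5.77 RPKM to 1.96 and 2.02 RPKM (log2 fold change -1.40, adjusted p = 8.03e-04, limma), and ROBO4, a Slit receptor known from endothelium, from 34.3 and 36.6 RPKM to 15.3 and 16.1 RPKM. SLC47A1, a drug and cation exporter, rose from 3.73 and 4.35 RPKM to 13.3 and 11.3 RPKM. Of 35 histone genes, 10 passed lower and 0 higher (median -0.40), and 3 to 6 without 1 library. H2AFX, a histone variant of the DNA damage response, fell from 82.0 and 77.0 RPKM to 49.3 and 56.0 RPKM. Most histone messages lack a poly(A) tail, so their level in mRNA libraries is uncertain.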
